A study of Drosophila melanogaster with 2 samples.

Results

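The genes described here are ninaD, its relatives among the class B scavenger receptors (the CD36 family) and ninaB, the enzyme that acts on what ninaD takes up. They are 7 genes, chosen by name: the 6 receptor genes ninaD, santa-maria, emp, crq, pes and Snmp1, and the carotenoid oxygenase gene ninaB. The whole table holds 13816 loci, each represented here by its most-read transcript, and 8137 of these had enough reads for a test. Of the 7 genes, 6 had enough reads and ninaB did not. ninaD was known to differ strongly between the sets of libraries when the genes were chosen, so the values of all 7 in that comparison are given as a description and without a test. Snmp1 stands under its older symbol Snmp in the deposited table and was found through its NCBI gene ID.

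RNA was sequenced from posterior midguts, the hind and largely absorptive part of the fly's middle intestine. The animals were wild-type Oregon R females aged 45 days or 5 days, with 3 biological replicates per age and midguts pooled before RNA extraction, per the labels. The deposited table names its sets of 3 libraries treatment and control, and no source used here says which set is which age, so they are called treatment and control below. If control is the younger age, "lower in treatment" reads as lower at 45 days. All animals were of the same sex, strain and genotype.

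CD36-type receptors are membrane proteins with a large extracellular loop that bind lipids, lipid-like molecules, dying cells or microbes and help to bring them into or past the cell. In flies, ninaD is needed in the gut to take up dietary carotenoids, the precursors of the visual chromophore. Carotenoid that has passed the gut is taken into cells of the head with the help of santa-maria and is cleaved there by ninaB. The other receptors have other known roles: crq (croquemort) in the uptake of dying cells by macrophages, pes (peste) in the uptake of mycobacteria by cultured cells, and Snmp1 in the detection of pheromones by sensory neurons. emp (epithelial membrane protein) was named for its place in epithelia.

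Libraries held 9581965 to 18001958 reads over loci. Across all genes tested, 2038 were called higher and 1962 lower in treatment by edgeR's quasi-likelihood test (adjusted p under 0.05). Together these are 49.2% of the genes tested, so a called difference between the sets is common in these data. The median log2 fold change of all genes was 0.014 with the TMM scaling used throughout. With scaling by total reads alone it was 0.22 and the split was 4127 higher and 1076 lower, so differences of about that size depend on the scaling. Enterocyte markers were looked at for the labelled tissue. No list was drawn up for regions of the midgut, so the posterior label itself was not checked. All 9 enterocyte markers had reads, at a summed 9812 to 10740 CPM in treatment and 12730 to 13300 CPM in control (CPM are counts scaled to library size). By the same test 4 of these 9 were called higher and 4 lower. Marker lists of other cells also moved. Of 9 visceral muscle markers 9 were called lower (summed 846.4 to 859.0 CPM in treatment and 1812 to 1923 CPM in control), of 8 enteroendocrine markers 5 were called lower (365.8 to 384.0 CPM in treatment and 509.9 to 546.0 CPM in control), and of 5 stem cell and enteroblast markers 5 were called higher (166.1 to 170.9 CPM in treatment and 107.9 to 110.9 CPM in control). Of the scarcer lists, 3 of 3 tested fat body markers were called higher, namely Yp1, Yp2 and Yp3. That list summed to 29.7 to 32.1 CPM in treatment and 19.3 to 23.7 CPM in control, nearly all from these 3. The other 6 fat body markers had at most 8 reads in any library, with Lsp1alpha at 0, and were not tested. Of the tracheal markers 3 of 4 were called lower (11.75 to 12.7 CPM in treatment and 14.9 to 17.8 CPM in control). Of 3 tested Malpighian tubule markers 1 was called higher (15.1 to 16.8 CPM in treatment and 15.05 to 17.6 CPM in control). Among all genes tested 25.0% were called higher and 24.1% lower. The part of these cells in the values below was not tested. In such bulk samples, fewer cells of a type and less RNA per cell cannot be told apart.

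ninaD was the member with by far the largest difference. Its gene lies on chromosome 2L, plus strand, at 18081630 to 18083608 in the build of the deposited table, which is not named, and its most-read transcript has 5 exons and 1725 bases. It had 24.7, 27.1 and 28.5 CPM in the treatment libraries, against 405.6, 408.4 and 395.2 CPM in the control libraries. All 3 treatment libraries were low, all 3 control libraries were high, and nothing lay between. The mean was 26.8 ± 1.91 CPM in treatment and 403.1 ± 6.92 CPM in control (SD, n = 3 each), a fitted log2 fold change of -3.93 (SE 0.06), so the treatment level was 15.2-fold lower. The values rest on 484, 276 and 336 reads in treatment and on 4542, 6373 and 5802 reads in control, so few reads are not a limit. Only 4 of the 8137 genes tested had a more negative log2 fold change. In level per transcript length, 3261 of all loci stood above ninaD in treatment and 495 in control.

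The difference was similar on both deposited transcripts of ninaD. The shorter one, with 3 exons and 1340 bases, had 336, 187 and 215 reads in treatment and 3184, 4684 and 4102 reads in control. Its log2 ratio of mean CPM was -4.01, against -3.91 for the longer transcript. As a share of the longer transcript's reads, the shorter one's were 69.4%, 67.8% and 64.0% in treatment and 70.1%, 73.5% and 70.7% in control. The shares are lower in every treatment library by a few percentage points, a difference that was not tested. How reads that fit both transcripts were counted is not stated. The shorter transcript lies within the span of the longer one and can share its reads, so the ratios are not independent. The authors' deposited table of genes lists ninaD with a log2 fold change of -3.90 (SE 0.06), santa-maria with -0.70 (SE 0.05), emp with -0.54 (SE 0.09) and Snmp1 with -0.26 (SE 0.12). That table's negative sign stands for lower in treatment, as the reads of these 4 genes show.

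**Figure D1:**
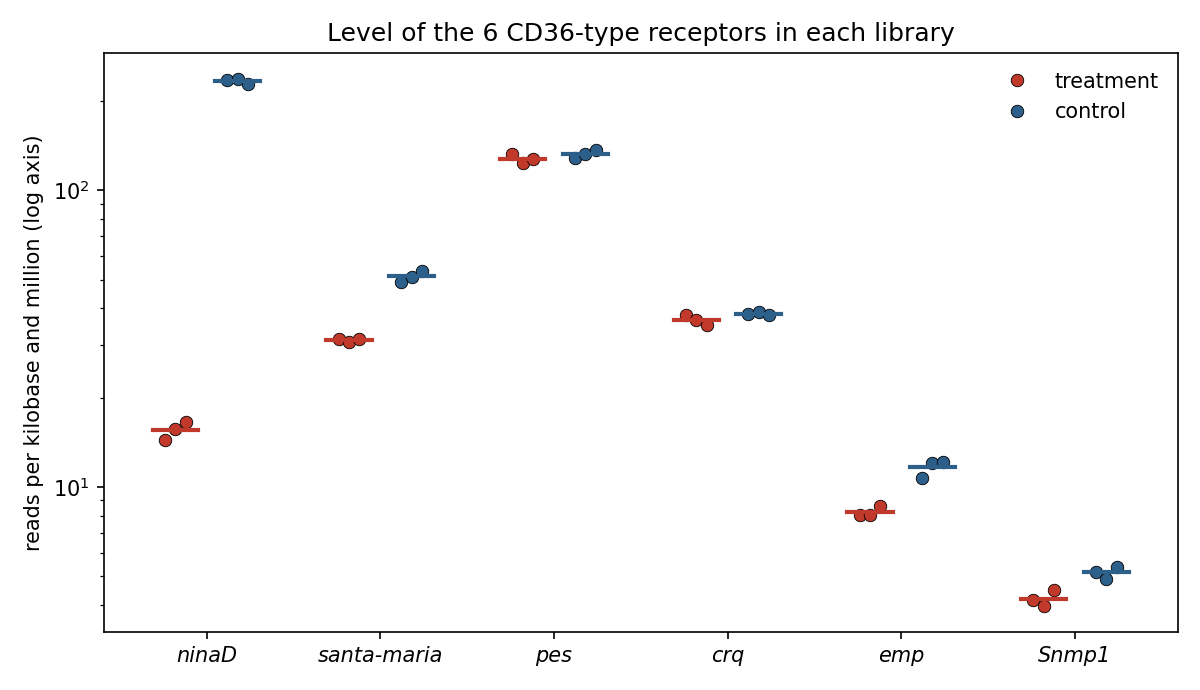
Level of each of the 6 receptors in every library, in RPKM (reads per kilobase of transcript, scaled to library size) on a log axis; points are libraries (treatment red, control blue) and lines are set means. ninaD lies at 14.3 to 16.5 in treatment and 229.1 to 236.8 in control, while the points of pes and of crq lie at nearly the same height in both sets.

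santa-maria, the receptor of the next step in carotenoid transport, was also lower, by far less. It had 70.1, 68.6 and 70.2 CPM in treatment, against 109.5, 113.9 and 119.1 CPM in control, and the sets did not overlap. The means were 69.6 ± 0.873 and 114.1 ± 4.81 CPM in treatment and control (SD, n = 3 each), with a log2 fold change of -0.71 (SE 0.05). The gene lies on 2L, minus strand, at 7445354 to 7451165. Within each library, and so free of any scaling between libraries, the per-length level of ninaD was 0.455, 0.508 and 0.524 times that of santa-maria in treatment and 4.78, 4.62 and 4.28 times in control. santa-maria was thus the more abundant of the pair in treatment and the less abundant in control.

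ninaB was hardly detected in either set. The treatment libraries held 0, 1 and 0 of its reads and the control libraries 0, 0 and 1. A limit of 3 reads corresponds to 0.153 to 0.294 CPM in the treatment libraries and 0.192 to 0.268 CPM in the control libraries, counting error only. Both sets are under that limit, so no difference could be seen and no fold is given. The enzyme's transcript was thus at or under 1 read per library in guts that carried 276 to 484 ninaD reads per treatment library and 4542 to 6373 per control library. ninaB lies on 3R, plus strand, at 9526308 to 9528844.

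emp was lower in treatment in every library. Its values were 18.3, 18.3 and 19.7 CPM in treatment and 24.5, 27.6 and 27.7 CPM in control, without overlap, with a log2 fold change of -0.51 (SE 0.08). Its 3 transcripts, from 2256 to 2378 bases long, gave log2 ratios of -0.51, -0.50 and -0.51. Each had nearly the same number of reads, as when shared reads are counted on every transcript, so the 3 ratios are not independent. The gene lies on 2R, minus strand.

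Snmp1 showed a smaller difference on few reads. It had 8.07, 7.75 and 8.74 CPM in treatment, against 10.1, 9.55 and 10.4 CPM in control, with a log2 fold change of -0.29 (SE 0.11). The sets did not overlap, but they lay close to each other, and with total-read scaling the value was -0.084. Snmp1 overlaps SNF4Agamma on the opposite strand, which had 1387 to 2554 reads per library where Snmp1 had 79 to 158. No strand setting of the counting is given, so reads of the pair cannot be told apart. SNF4Agamma itself had a log2 fold change of 0.0033 (adjusted p = 0.961, edgeR).

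The remaining receptors, pes and crq, were well expressed and showed little difference. pes had 385.5, 359.3 and 371.6 CPM in treatment and 373.6, 387.1 and 398.9 CPM in control, and the sets overlapped (log2 -0.054, SE 0.044). crq had 105.7, 101.0 and 97.8 CPM in treatment and 106.1, 107.6 and 105.4 CPM in control, and these sets overlapped too (log2 -0.064, SE 0.048). With total-read scaling both were slightly higher in treatment, pes at 0.15 and crq at 0.14, against the 0.22 of the median gene on that scale. crq overlaps the gene ex on the opposite strand, which had 159 to 378 reads per library against 1030 to 2070 for crq.

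crq is best known from macrophages, so markers of blood cells were looked at beside it. Of the 10 listed, He had 0 reads in every library, and eater and NimC1 stayed at or under 0.098 CPM in each library. Others had reads: srp was at 3.12 to 4.67 CPM in treatment and 4.42 to 5.72 CPM in control, and Pxn at 1.17 to 1.57 CPM in treatment and 1.34 to 1.84 CPM in control. lz was at 4.07 ± 0.789 CPM in treatment and 0.27 ± 0.18 CPM in control, PPO1 at 1.97 ± 0.434 CPM in treatment and 0.339 ± 0.0184 CPM in control, and Sr-CI at 1.51 ± 0.721 CPM in treatment and 0.416 ± 0.147 CPM in control (SD, n = 3 each). Hml and PPO2 were too scarce for a test and lay lower in treatment, without overlap. Hml was at 0.118 ± 0.129 CPM in treatment and 0.464 ± 0.065 CPM in control. PPO2 was at 0.173 ± 0.0216 CPM in treatment and 0.555 ± 0.22 CPM in control (SD, n = 3 each). The summed level of the list was 12.6 to 13.4 CPM in treatment and 8.01 to 9.67 CPM in control, with 3 of 5 tested members (lz, PPO1 and Sr-CI) called higher and 1 (srp) called lower, where 25.0% of all genes tested were called higher and 24.1% lower. Their part in the values of crq was not tested. Of 11 photoreceptor markers, Rh3 had 0 reads in every library and only norpA and trp had enough reads for a test. The summed level of that list was 8.73 to 9.76 CPM in treatment and 9.11 to 10.97 CPM in control, most of it from norpA, which was not called (7.45 to 8.89 CPM in treatment and 7.05 to 8.52 CPM in control). trp was called lower, at log2 -5.17 (SE 0.67; edgeR adjusted p = 1.02e-07), on 0 to 1 reads per treatment library and 12 to 19 per control library.

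Over the 6 members with enough reads, 4 met the call used for all genes in the lower direction and 0 in the higher direction, where 24.1% of all genes tested were called lower. In 4 the sets did not overlap with treatment lower, as in 26.9% of all genes. The same comparison was in view when the members were chosen, so nothing is read from these counts. Snmp1 did not keep its call with DESeq2 or with total-read scaling, nor when treatment replicate 1, treatment replicate 2, control replicate 1 or control replicate 3 was left out. The median log2 fold change of the members was -0.40, and that of all genes tested was 0.014.

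**Figure D2:**
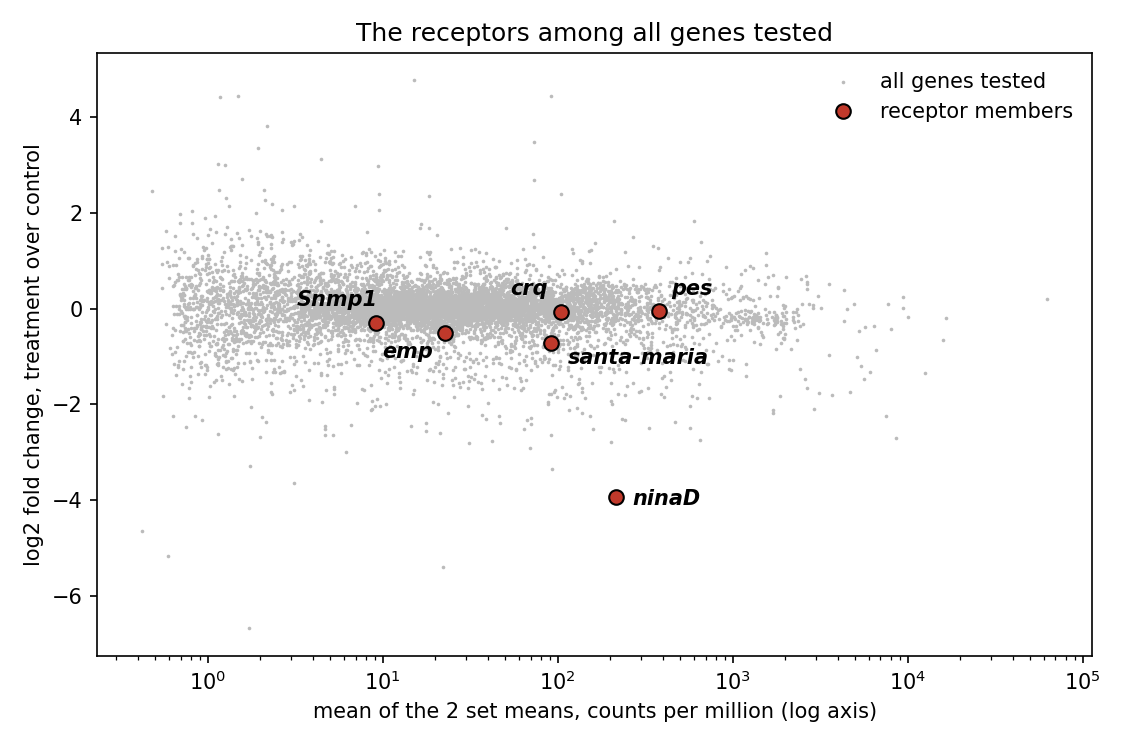
Log2 fold change, treatment over control, against mean CPM on a log axis for all 8137 genes tested (grey) and the 6 receptors (red). ninaD, at -3.93, lies well below the grey cloud at its abundance, and the other 5 receptors lie between -0.71 and -0.054, within the main cloud.

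The order of the receptors by per-length level, in RPKM, differed between the sets. In treatment pes was first at 127.7 ± 4.50 RPKM, followed by crq at 36.6 ± 1.43, santa-maria at 31.3 ± 0.393, ninaD at 15.5 ± 1.11, emp at 8.22 ± 0.347 and Snmp1 at 4.20 ± 0.260 RPKM (SD, n = 3 each). In control ninaD was first at 233.7 ± 4.01 RPKM, followed by pes at 132.7 ± 4.35, santa-maria at 51.3 ± 2.16, crq at 38.3 ± 0.408, emp at 11.6 ± 0.794 and Snmp1 at 5.14 ± 0.226 RPKM. No 2 of these 6 that follow each other overlapped in either set. ninaD thus stood in place 4 among the receptors in treatment and in place 1 in control.

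ninaD alone made up much of the family's transcripts in control. Summed over all 14 CD36-type genes, the level was 234.1, 224.1 and 229.5 RPKM in treatment and 477.7, 489.0 and 486.8 RPKM in control. ninaD held 6.12%, 7.0% and 7.2% of that sum in treatment and 49.2%, 48.4% and 47.1% in control. pes held 56.5%, 55.1% and 55.6% in treatment and 26.9%, 27.2% and 28.1% in control. These shares do not depend on the scaling between libraries. Without ninaD, the other 13 genes summed to 213.7 ± 5.71 RPKM in treatment and 250.8 ± 7.65 RPKM in control (SD, n = 3 each), a log2 ratio of -0.23 that was -0.027 with total-read scaling.

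**Figure D3:**
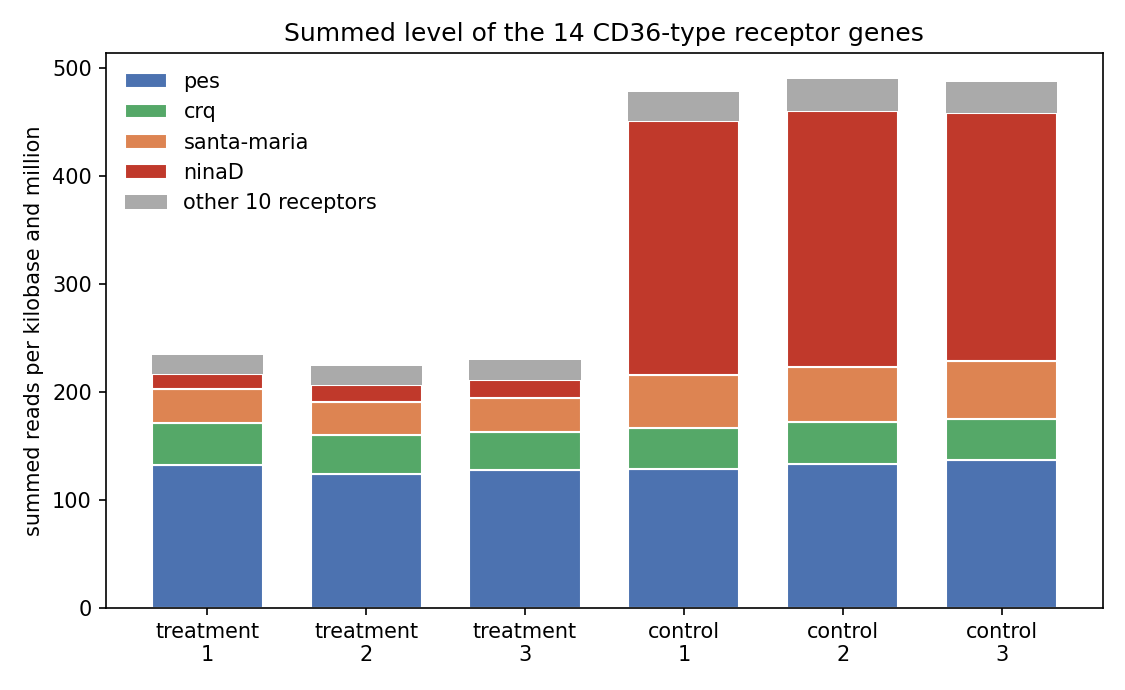
Summed level of the 14 CD36-type receptor genes in each library, in RPKM, divided by gene. The ninaD segment takes 6.12% to 7.2% of a treatment bar and 47.1% to 49.2% of a control bar, and the pes segment has about the same height in all 6 bars.

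The family's 8 other genes were compared with the members. Of these, 3 had enough reads, 2 were called lower and 0 higher in treatment, where 24.1% of all genes tested were called lower and 25.0% higher. CG3829 had 7.0, 6.28 and 5.77 CPM in treatment, against 16.0, 14.6 and 15.9 CPM in control, and fell by 1.26 on the log2 scale (SE 0.11; edgeR adjusted p = 1.45e-11). CG7227 had 6.79, 7.55 and 6.79 CPM in treatment, against 12.95, 15.9 and 13.7 CPM in control, and fell by 1.03 (SE 0.11; edgeR adjusted p = 2.23e-09). Neither gene's sets overlapped. CG31741 rested on 6, 4 and 8 treatment reads and 3, 20 and 12 control reads (log2 -0.94, SE 0.46; edgeR adjusted p = 0.0939). It passed in edgeR without treatment replicate 3 (adjusted p = 0.0461) or control replicate 1 (0.0197). It did not pass in edgeR without treatment replicate 2 (0.177), with total-read scaling (0.173) or with the replicate number as a block (0.198). With DESeq2 it did not pass either (0.278). It was not among the genes tested with summed transcripts, or without treatment replicate 1, control replicate 2 or control replicate 3. The median of the 3 was -1.03. The other 5 were too low to test: Snmp2, dsb, CG10345 and CG2736 had at most 2 reads in any library and CG40006 at most 9.

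Each of the 3 tested relatives lies beside a member, with no other locus starting between them. CG31741 starts 659 bases after ninaD on the same strand and had 3 to 20 reads per control library where ninaD had 4542 to 6373. CG7227 is separated from pes by 654 bases on the same strand. It was called lower while pes, next to it, was at log2 -0.054, and the difference between the pair was not tested. CG3829 lies 1156 bases from the nearest end of an emp transcript, on the opposite strand, and CG2736, on the other side of emp, had 0 reads in treatment and 1 read in control. On the other side of ninaD, 1206 bases away, lies Arr1, an arrestin gene of photoreceptors. It had at most 2 reads per treatment library and 4 to 10 per control library, too few for a test. The next genes outward, rdo and elfless on one side and CG15153 and Slc25A46b on the other, had at most 3 reads in any library, so ninaD was the only 1 of the 7 neighbouring loci with more than 20 reads in a library.

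**Figure D4:**
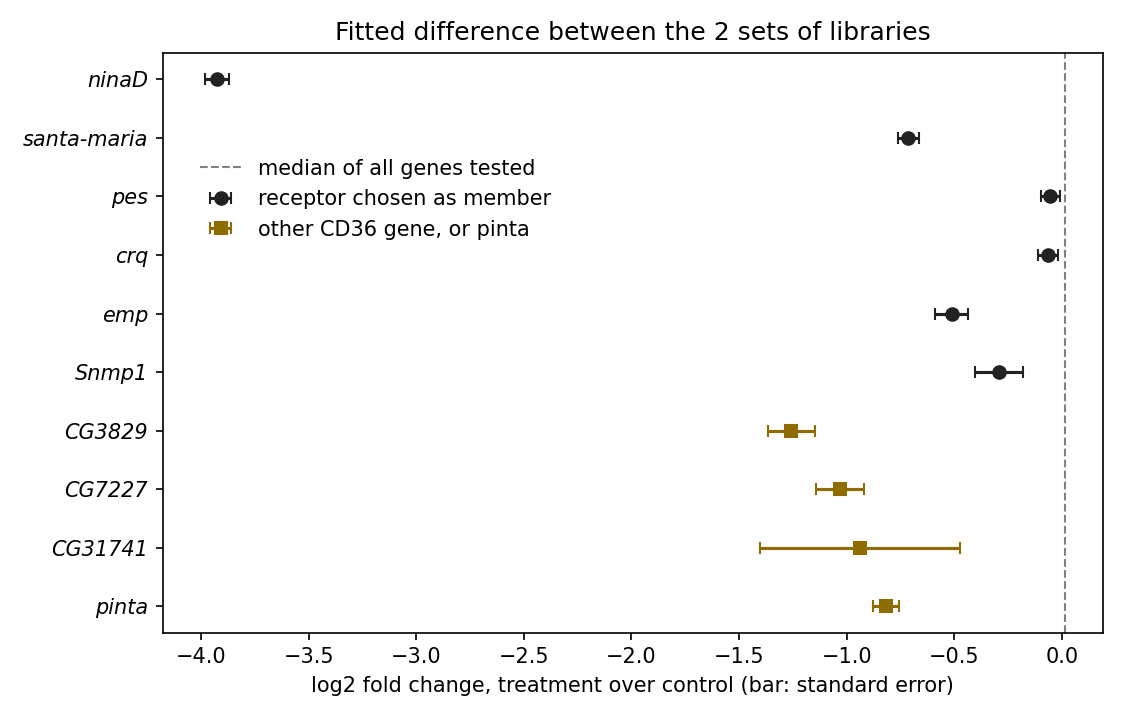
Fitted log2 fold change, treatment over control, with its standard error, for the 6 receptor members (circles), the 3 other CD36-type genes with enough reads and the retinoid-binding gene pinta (squares); the dashed line is the median of all genes tested, 0.014. ninaD stands apart at -3.93, CG3829, CG7227 and pinta lie between -1.26 and -0.82, and pes and crq lie next to the line.

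Genes listed for the handling of retinoids and of rhodopsin were nearly silent, apart from pinta. pinta encodes a retinoid-binding protein needed for chromophore production in the head. It had 41.1, 42.75 and 40.9 CPM in treatment, against 74.6, 75.2 and 69.8 CPM in control, and fell by 0.82 on the log2 scale (SE 0.06; edgeR adjusted p = 2.34e-13). Of the 5 genes listed it was the 1 with enough reads. rdhB, a retinol dehydrogenase gene, had 0 reads in every library. Pdh, another dehydrogenase, ninaA, a chaperone of rhodopsin, and ninaG, an oxidoreductase of chromophore synthesis, had at most 4 reads in any library.

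Among 9 matched genes of lipoproteins and of intestinal lipid and sterol uptake, 8 were tested, 4 were called lower and 0 higher (median log2 -0.44), where 24.1% of all genes tested were called lower and 25.0% higher and their median was 0.014. The 3 with the smallest adjusted p were mag, LpR1 and Apoltp. LpR1, a lipophorin receptor, had 56.3, 55.3 and 55.65 CPM in treatment, against 85.0, 86.7 and 91.9 CPM in control, and fell by 0.66 (SE 0.05; edgeR adjusted p = 4.49e-12). The gut lipase gene mag fell by 2.09 (SE 0.05; edgeR adjusted p = 5.4e-26). Apoltp, a lipid transfer particle gene, was at 0.374 ± 0.0609 CPM in treatment and 0.949 ± 0.143 CPM in control (SD, n = 3 each). It fell by 1.39 (SE 0.40; edgeR adjusted p = 0.00467, DESeq2 adjusted p = 0.0423). These values rest on few reads, 6, 4 and 5 in treatment and 9, 17 and 14 in control. Without control replicate 2 or control replicate 3, Apoltp was not among the genes tested. Mtp was the fourth. The sterol uptake gene Npc1b was not called, at 1102 ± 22.9 CPM in treatment and 1137 ± 55.8 CPM in control. With total-read scaling 3 were called lower and 3 higher, where 1076 of the 8137 genes tested were called lower and 4127 higher.

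Of 19 matched genes of other scavenger and engulfment receptors and their adaptors, 7 were tested, 2 were called higher and 3 lower (median log2 0.10), where 25.0% of all genes tested were called higher and 24.1% lower. With total-read scaling 3 were called higher and 1 lower, where 4127 of the 8137 genes tested were called higher and 1076 lower. NimC3, of the Nimrod receptor family, had 46.6, 41.4 and 42.0 CPM in treatment, against 158.9, 150.9 and 158.6 CPM in control, and fell by 1.84 (SE 0.05; edgeR adjusted p = 1.08e-23). mbc, whose product acts with Ced-12 to activate Rac in engulfment, fell by 0.33 (SE 0.07; edgeR adjusted p = 0.000112), but did not pass when only total reads were used for scaling (0.101). Ced-12 itself was called higher, by 0.20 (SE 0.07; edgeR adjusted p = 0.02), a size that depends on the scaling. Sr-CI, a class C scavenger receptor gene, rose by 1.90 (SE 0.40; edgeR adjusted p = 0.00021) on 37, 20 and 8 reads in treatment and 5, 4 and 8 reads in control. It was not among the genes tested with summed transcripts or without treatment replicate 1. Of the 12 not tested, NimA, NimC4 and Sr-CII had 0 reads in every library.

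The 5 tested genes whose values over the 6 libraries were most like those of ninaD were Cyp4g1, CG9825, Ugt37E1, trp and Lsd-1. Likeness was the root mean square difference of log2 CPM after centring each gene on its control mean, and it ran from 0.41 (Cyp4g1) to 0.72 (Lsd-1) log2 units. CG9825, at 0.44, was at 16.9 ± 3.08 CPM in treatment and 169.7 ± 6.96 CPM in control. Lsd-1, which encodes a lipid droplet protein, was at 16.4 ± 0.491 CPM in treatment and 123.4 ± 4.45 CPM in control (SD, n = 3 each). The other 3 were scarce. The log2 CPM behind the likeness carry a prior count of 2, which shrinks differences at low counts. The fitted log2 fold changes were -6.68 for Cyp4g1, -5.17 for trp, -3.64 for Ugt37E1, -3.36 for CG9825 and -2.91 for Lsd-1, against -3.93 for ninaD. Cyp4g1 held 0 to 1 reads per treatment library and 42 to 54 per control library, Ugt37E1 held 1 to 13 and 67 to 92, and the photoreceptor channel gene trp held 0 to 1 and 12 to 19. All 5 were picked for following ninaD over these libraries, so their direction is fixed by the choice.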

How the data were processed

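The deposited transcript table by the authors holds read counts for 24047 transcripts in 6 libraries. No aligner, build or counting rule is given in the sources used here; per the submitters' processing notes, DESeq was used. The other deposited table holds the authors' log2 fold changes with standard errors, per the file headers. Their direction is not stated; the members it lists, which have fewer treatment reads per library size, carry a negative sign. Each locus was represented by its most-read transcript, after 145 predicted transcripts and 6 loci with a repeated symbol were left out. Symbols came from RefSeq by gene ID for 12820 of 13816 loci. edgeR 4.0.16 in R 4.3.3 fitted TMM-scaled counts (filterByExpr, minimum count 10; quasi-likelihood test, Benjamini-Hochberg at 0.05 over all genes tested). CPM are TMM-scaled, and RPKM divide them by transcript length. DESeq2 1.42.0 was an alternative. The fit was checked on simulated counts.

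The members, lists, named-gene rule and alternatives were chosen with earlier results of these data known. All members and all measured CD36 and retinoid genes are named, and of other lists the 3 called with the smallest adjusted p. For likeness to ninaD, log2 CPM had a prior count of 2. Ced-12, Mtp and Npc1b, marker genes and the genes not tested are named outside this rule. p-values measure the spread between pooled replicates. drpr, fabp, btl and Act57B were not matched by symbol and are not used here. Act57B was measured under a symbol joined with that of a snoRNA, so an unmatched gene need not be absent from the data.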

Additional observations from a re-analysis of the deposited data

How the results depend on the processing

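With total-read scaling, 4127 of the 8137 genes tested were called higher and 1076 lower, so counts called on that scale are to be read beside these. The members then had log2 fold changes of -3.72 (ninaD), -0.51 (santa-maria), -0.31 (emp), -0.084 (Snmp1), 0.14 (crq) and 0.15 (pes). The 2 members called higher, crq and pes, lay under the 0.22 of the median gene on that scale, and nothing is read from their calls. The summed level of the 14 receptors was at -0.88, and at -0.027 without ninaD. On that scale 3 lipid genes were called higher and 1 engulfment gene lower. The number of engulfment genes called higher was 1 with DESeq2 and with summed transcripts, and 1 to 2 when 1 library was left out. Leaving out 1 library in turn moved ninaD between -3.97 and -3.85, santa-maria between -0.75 and -0.69, emp between -0.57 and -0.48, and crq and pes between -0.097 and -0.029. Of the members, 3 to 4 were then called lower, as were 1735 to 1927 of all genes tested. Other scaling in edgeR (DESeq2 size factors) and no filter kept every count within 1.5 times its value.

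Library numbers in the column names do not pair the sets by any source. Same-numbered libraries had deviations correlated at -0.0086, 0.24 and 0.15, and treatment replicate 1 correlated best with control replicate 3 (0.24). With the replicate number as a block, 2106 genes were called higher and 2010 lower, and ninaD was at -3.92.

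ninaB, 5 relatives and most retinoid genes had too few reads for a test.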

Other observations

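In the authors' deposited table, NimC3 is listed with a log2 fold change of -0.70 (SE 0.35), where the reads of the transcript table gave -1.84 (SE 0.05). For pinta the same deposited table gives -0.83 (SE 0.06), for CG3829 -1.22 (SE 0.12) and for CG7227 -1.02 (SE 0.12), close to the values found here.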
